A study of Mus musculus with 15 samples.

Results

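Gene expression was compared between 2 libraries of mouse prostate organoids without Setd2 and 2 libraries of such organoids without Setd2 and Ezh2. These are 4 of the 15 samples of the series. Genes entered when their average across all 8 libraries of that table reached 1 RPKM, which kept 11338 of the 21886 genes listed. RPKM is the read count of a gene scaled by its length and by the total reads of the library. Organoids are epithelial cells grown as small three-dimensional structures in a gel. The cells were prostate epithelial cells of 3-month-old C57BL/6 mice. The first group (Setd2 null) is labelled PtenPC+/-;Setd2PC-/- and the second (double null) PtenPC+/-;Setd2PC-/-;Ezh2PC-/-, so both groups share the PtenPC+/- genotype and the loss of Setd2. The same deletion of Ezh2 was also made with Setd2 intact, in the groups PtenPC+/- (control) and PtenPC+/-;Ezh2PC-/- (Ezh2 null), with 2 libraries each. The labels mark the deleted alleles with PC and name no Cre driver. Words such as rose and fell below compare groups of different genotype and describe no change over time. Each library held RNA of 3 biological replicates mixed in equal mass, so the spread between libraries is a spread between pools and not between animals, and the p-values measure that spread only.

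EZH2 is the enzyme within Polycomb repressive complex 2 (PRC2) and methylates histone H3 at lysine 27. The trimethylated form, H3K27me3, marks genes that are kept silent, among them developmental regulators and genes of other cell lineages. SETD2 places trimethylation on lysine 36 of the same histone along transcribed genes, and that mark hinders PRC2 on the same histone tail. The prostate gland has an inner luminal layer, which depends on androgens and secretes the prostatic fluid, and an outer basal layer, which attaches to the basement membrane through integrins and laminins.

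Reads on listed genes, recovered from the deposited values, ranged from 29685872 to 54200685 over the 8 libraries and from 32200738 to 49862406 over the 4 compared. The first principal component of all tested genes held 81.2% of the variance and set the 4 libraries with Ezh2 deleted apart from the 4 with Ezh2 intact. The second, with 6.93%, set the libraries numbered 1 of Ezh2 null and double null apart from the libraries numbered 2 of the same groups. A total of 61 genes stood at 5 RPKM or more in both of these libraries numbered 1 and at under 0.1 of that level in both numbered 2, and 0 genes did the reverse. Of the 61, 54 (88.5%) overlap another listed gene, against 19% of all tested genes, and 57 were under 1 RPKM in every control and Setd2 null library. Ugt1a9, a glucuronidating enzyme, stood at 37.8 and 0 RPKM in the double null libraries, and the tumour suppressor gene Ing4 at 29.3 and 0. Of the 61, 0 were called by limma between double null and Setd2 null. The rule picks genes far apart between the 2 double null libraries, which makes a call unlikely. So the 0 does not show that other calls are free of this difference. Counts given without the first double null library stand beside the results below, and what set it apart was not tested.

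Ezh2 stood at 24.2 and 20.7 RPKM in the Setd2 null libraries and at 16.6 and 14.2 in the double null libraries. The groups did not overlap, but Ezh2 reads remained in both double null libraries. Each gene has a single value in the table, and shortened transcripts without the deleted exons would still count towards it. The log2 fold change was -0.52 ± 0.142 (SE, n = 2 libraries a group, limma adjusted p = 0.0121). Without the first Setd2 null library the adjusted p was 0.0657, and without the second double null library it was 0.0912. Setd2, deleted in both groups, stood at 8.75 and 10.3 RPKM without and at 8.99 and 7.54 with Ezh2 deleted. These ranges overlap, and the log2 fold change was -0.18 ± 0.148 (limma adjusted p = 0.321). In the control libraries Setd2 stood at 17.0 and 16.1 RPKM, above all 4.

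More than 1 in 2 of the tested genes differed between double null and Setd2 null. Called genes, those with a limma adjusted p under 0.05, numbered 6241 (55.0%), and the count at an unadjusted p under 0.05 was 6811. Of the called genes 4036 were higher (35.6% of those tested) and 2205 lower (19.4%) in double null. With a change of at least 2-fold on the log2(RPKM + 1) scale there were 2069 (18.2%), 1307 of them higher (11.5%) and 762 lower (6.72%). Fold changes on this scale understate the change of genes near 1 RPKM and below. The median log2 fold change over all tested genes was 0.18, and it moved to -0.00 when the libraries were brought to the same distribution by quantile normalization. Of the called genes 64.7% were higher in the values as deposited, 48.3% after quantile normalization and 49.7% after median-ratio scaling. So the excess of higher genes rests on the scaling. The lists below are read against the median of all genes and the 35.6% higher and 19.4% lower of all tested genes. Genes near 0 with Ezh2 intact were tested only if higher with Ezh2 deleted, and the reverse. In bulk RNA, fewer cells of a type and less RNA per cell cannot be told apart, which holds for every result below.

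Genes at 0 in Setd2 null and clearly above it in double null outnumbered the reverse. A total of 19 tested genes were listed at 0 in both Setd2 null libraries and stood at 5 RPKM or more in both double null libraries, while 0 genes did the reverse, also with the minimum lowered to 1 RPKM. The double null libraries were deeper, with 48325957 and 49862406 reads on listed genes against 32200738 and 34880558 in Setd2 null. An exact 0 is harder to reach in a deeper library, and the part of depth in this count was not tested. The highest of the 19 was Crisp1 (Entrez 11571, chr17:40293758-40319243, minus strand, mm10), which encodes a secreted protein known from the epididymis that coats sperm. Crisp1 was listed at 0 in both Setd2 null libraries and stood at 622 and 436 RPKM in double null. The next were Sbp, the prostate spermine-binding protein, at 49.7 and 51.6 RPKM, Pate4, a secreted protein of the male tract, at 49.3 and 33.4, Cyp4a12a, a fatty acid and steroid hydroxylase, at 41.9 and 32.3, and Calm4, a calmodulin-like protein of differentiating keratinocytes, at 22.9 and 28.8. Each was at 0 in both Setd2 null libraries. No fold is given against a group at 0, and the differences on the log2(RPKM + 1) scale for such genes, 9.03 for Crisp1, depend on the added 1. Cyp4a12a has near-identical neighbours, so its share of their reads is uncertain.

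Other genes with large rises were low but not at 0 in both Setd2 null libraries. Aqp3, a water and glycerol channel of basal and squamous epithelia, went from 2.08 and 2.38 to 149 and 185 RPKM (5.69 ± 0.166 on the log2 scale, limma adjusted p = 1.52e-08). Cdo1, which oxidizes cysteine on the way to taurine, went from 0.666 and 0.37 to 142 and 118 RPKM, and Spink8, a secreted protease inhibitor, from 0 and 0.0691 to 94.9 and 71.8. The double null libraries lay far above the Setd2 null libraries for all of them. The 15 highest log2 fold changes ran from 5.17 to 9.03. Others of the 15 were Lrg1, Krt10, Aldh1a7, Defb50, Ltf, Wfdc15b and Krtdap.

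**Figure D1:**
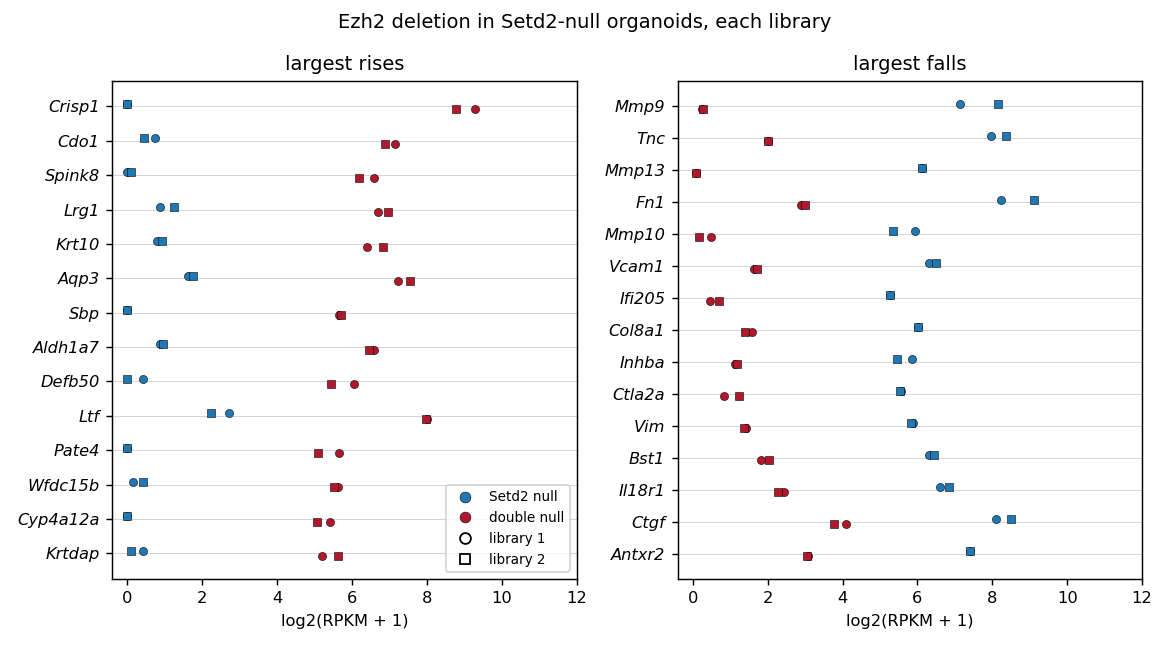
Levels of 14 of the 15 genes with the largest rises (left) and of the 15 with the largest falls (right), as log2(RPKM + 1) on the horizontal axis. Each point is 1 library, blue for Setd2 null and red for double null, circles for libraries numbered 1 and squares for libraries numbered 2; the colours do not overlap for any gene shown.

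The promoters of 2 of the genes that rose most differ in CpG content, and CpG-rich promoters are the ones PRC2 is best known to bind. The stretches run from 200 to 51 bases before the start that RefSeq annotates (GRCm38.p6, the mm10 assembly), with CpG in capitals. For Crisp1 this start lies inside the span given above from the deposited table; Crisp1 is chr17:40319258-40319407 and Aqp3 chr4:41098234-41098383, both read on the minus strand.
Crisp1: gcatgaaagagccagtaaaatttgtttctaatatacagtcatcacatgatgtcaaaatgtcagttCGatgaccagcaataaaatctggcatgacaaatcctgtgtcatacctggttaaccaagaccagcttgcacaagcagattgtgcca
Aqp3: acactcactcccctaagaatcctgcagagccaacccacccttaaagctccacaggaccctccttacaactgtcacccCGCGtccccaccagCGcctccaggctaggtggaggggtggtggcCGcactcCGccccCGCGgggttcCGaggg
The Crisp1 stretch holds 1 CpG and the Aqp3 stretch 8. Over the whole 300-base window, 250 bases before the start to 50 after it, the observed over expected CpG ratio was 0.181 for Crisp1 and 0.711 for Aqp3.

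Over all genes with a RefSeq promoter (9111 of those tested, the first listed promoter of each), strongly changed genes had fewer CpG than the rest, in both directions. The median ratio of observed to expected CpG was 0.705 for the 1028 genes higher at least 2-fold, 0.6 for the 591 lower at least 2-fold, 0.799 for the 4074 not called and 0.779 for all. A ratio of at least 0.6 was found in 61.8% of the higher, 50.3% of the lower and 79.3% of the uncalled genes. These are descriptions of the genes called here and no test was made of them. Levels differed between the sets as well: the median of the mean level was 8.16 RPKM for the higher, 13.1 for the lower and 10.4 for the uncalled genes.

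**Figure D2:**
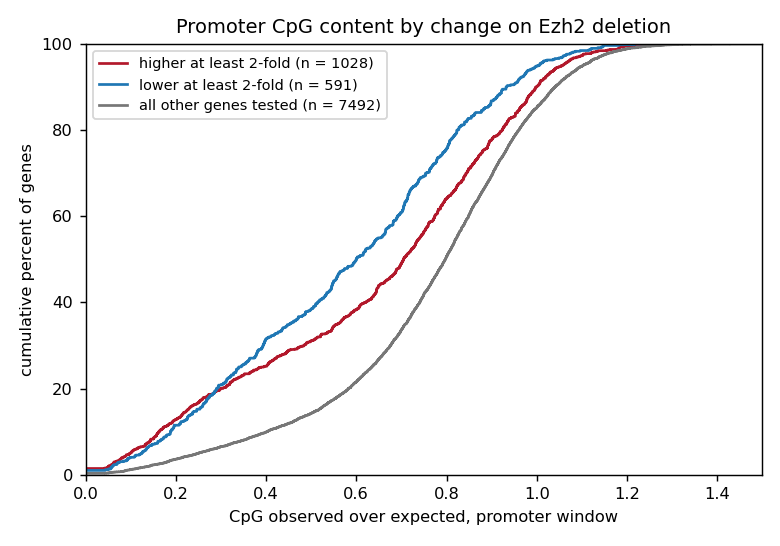
Cumulative percent of genes (vertical axis) against the ratio of observed to expected CpG in the 300-base promoter window (horizontal axis), for genes higher at least 2-fold in double null (red, n = 1028), lower at least 2-fold (blue, n = 591) and all other tested genes (grey, n = 7492). Both coloured curves lie to the left of the grey curve over most of the axis, the blue one farthest at its middle.

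Most markers of the luminal layer rose. Of 22 tested luminal genes 14 were higher, 2 lower and 6 not called, and the list median was 1.89. Hoxb13, the posterior homeobox factor of the prostate, stood at 12.3 and 15.2 RPKM in Setd2 null and 95.1 and 112 in double null (2.83 ± 0.162, limma adjusted p = 8.18e-07). Psca, a surface antigen of luminal progenitor cells, went from 281 and 186 to 1450.1 and 1529 RPKM. Pbsn, the androgen-driven secretory protein probasin, was at 0 in both Setd2 null libraries and at 3.68 and 3.95 RPKM in double null. All of these lay well apart between the groups. Azgp1, Cldn10, Mme, Ppp1r1b, Krt4, Prom1, Dpp4, Spink1 and Cd24a were also higher, with log2 fold changes from 0.53 to 4.08. Krt8 and Krt18, the keratin pair of simple epithelia, were lower: Krt8 stood at 1327 and 972 RPKM against 688 and 718, and Krt18 at 1011 and 824 against 514 and 526. Krt19 was not called (log2 fold change -0.16, adjusted p = 0.5), nor was the pioneer factor Foxa1. Tgm4, a prostate transglutaminase, stood at 2.99 RPKM in the first double null library and at 0.374 in the second, against 0.373 and 0.41 in Setd2 null.

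Secreted proteins of the prostate, seminal vesicle and epididymis rose in the same libraries. Of 15 tested 12 were higher and 2 lower, with a median of 1.97. Ltf, the iron-binding milk and mucosal protein lactoferrin, stood at 5.58 and 3.73 RPKM in Setd2 null and at 255 and 251 in double null (5.51 ± 0.158, limma adjusted p = 1.43e-08). Agr2, a folding enzyme of mucus-secreting cells, went from 3.47 and 2.06 to 66.5 and 61.8 RPKM, and Pigr, which carries antibodies across epithelia, from 4.02 and 6.71 to 64.4 and 64.3. The groups lay more than 9 times apart in each case on the RPKM scale. Lcn2, an iron-scavenging protein, stood at 264 and 535 RPKM against 890.4 and 819, with the Setd2 null libraries about 2-fold apart. Wfdc2 was lower (681 and 627 against 337 and 330.2 RPKM), and the luminal chaperone Clu was not called (log2 fold change 0.31, adjusted p = 0.169). Without the first double null library the counts were 12 higher and 1 lower.

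Androgen-responsive genes did not move as 1 group. Of 28 tested, 15 were higher, 7 lower and 6 not called, with a median of 0.44. The shares of all tested genes were 35.6% higher and 19.4% lower. Fkbp5, a chaperone of steroid receptors, rose from 28.2 and 28.9 to 115 and 120.1 RPKM, and Tmprss2, a membrane serine protease, from 30.9 and 22 to 111 and 114. Spdef, an ETS factor of secretory cells, went from 0.485 and 0.709 to 8.17 and 9.82. Against these, Pmepa1 fell from 67.2 and 88.2 to 5.47 and 5.99 RPKM and Aldh1a3, a retinaldehyde dehydrogenase, from 282 and 265 to 35.8 and 38.8. Pmepa1 is known as a target of both androgen and TGF-beta signalling.

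Markers of the basal layer moved in both directions. Of 18 tested basal genes 9 were higher and 8 lower, with a median of 0.34. The keratins Krt5, Krt14 and Krt15 were higher: Krt5 stood at 607 and 497 RPKM in Setd2 null and 1812 and 2084 in double null (1.82 ± 0.167, limma adjusted p = 1.81e-05). Krt15 stood at 968 and 824 against 2176 and 2412 RPKM, 1 of the 3 largest gains in RPKM of any gene named by the rules used here, with Gsto1 (560.3 and 592 against 2267 and 2551) and Krt5. Trp63, the p63 factor that basal cells depend on, was 18.1 and 19.4 against 27.9 and 26.8 RPKM (0.52 ± 0.112, adjusted p = 0.00346). Among the lower genes, Lamb3, a chain of laminin-332, stood at 336 and 405 RPKM against 52.0 and 58.1 (-2.73 ± 0.14, adjusted p = 4.11e-07). Krt17, the integrin genes Itga6 and Itgb4, Dst, Cdh3 and Sncg were lower too. Without the first double null library 6 rather than 8 were lower.

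Every tested gene of the cornified envelope was higher. The envelope is the cross-linked protein shell of terminally differentiated squamous cells, which a normal prostate gland does not form. All 17 tested members of the 23 listed rose, with a median of 2.32, against 35.6% of all tested genes. Members near 0 with Ezh2 intact were tested only if higher with Ezh2 deleted, so the filter favours this count. Of the untested members, Flg, Klk7, Lce3a and Sprr3 were higher in both double null libraries than in both Setd2 null libraries. S100a7a (1.23 and 0.767 RPKM against 0.922 and 0.903) and Tgm3 overlapped. Krt10, the keratin of suprabasal epidermis (chr11:99385254-99389699, minus strand), stood at 0.742 and 0.892 RPKM in Setd2 null and 84.1 and 112 in double null (5.75 ± 0.191, limma adjusted p = 3.41e-08). Krtdap went from 0.332 and 0.0615 to 35.9 and 48.4 RPKM and Calml3, an epithelial calmodulin-like protein, from 0.191 and 0.255 to 36.7 and 37.2. Dmkn, a secreted protein of suprabasal cells, went from 1.63 and 1.16 to 32.7 and 42.1. The double null libraries were higher in each case with no overlap. Klf4, a transcription factor of squamous differentiation, went from 6.87 and 10.4 to 54.2 and 64.9. The smallest rise of the list was that of Sprr1a (455 and 338 against 629.7 and 622 RPKM, 0.67 ± 0.16, adjusted p = 0.00585). Genes of the Sprr2 family are near-identical copies, so the reads of Sprr2a1 and Sprr2d cannot be assigned with certainty. The count was 17 of 17 also after quantile normalization, after median-ratio scaling, with the voom method on recovered reads and without the first double null library.

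**Figure D3:**
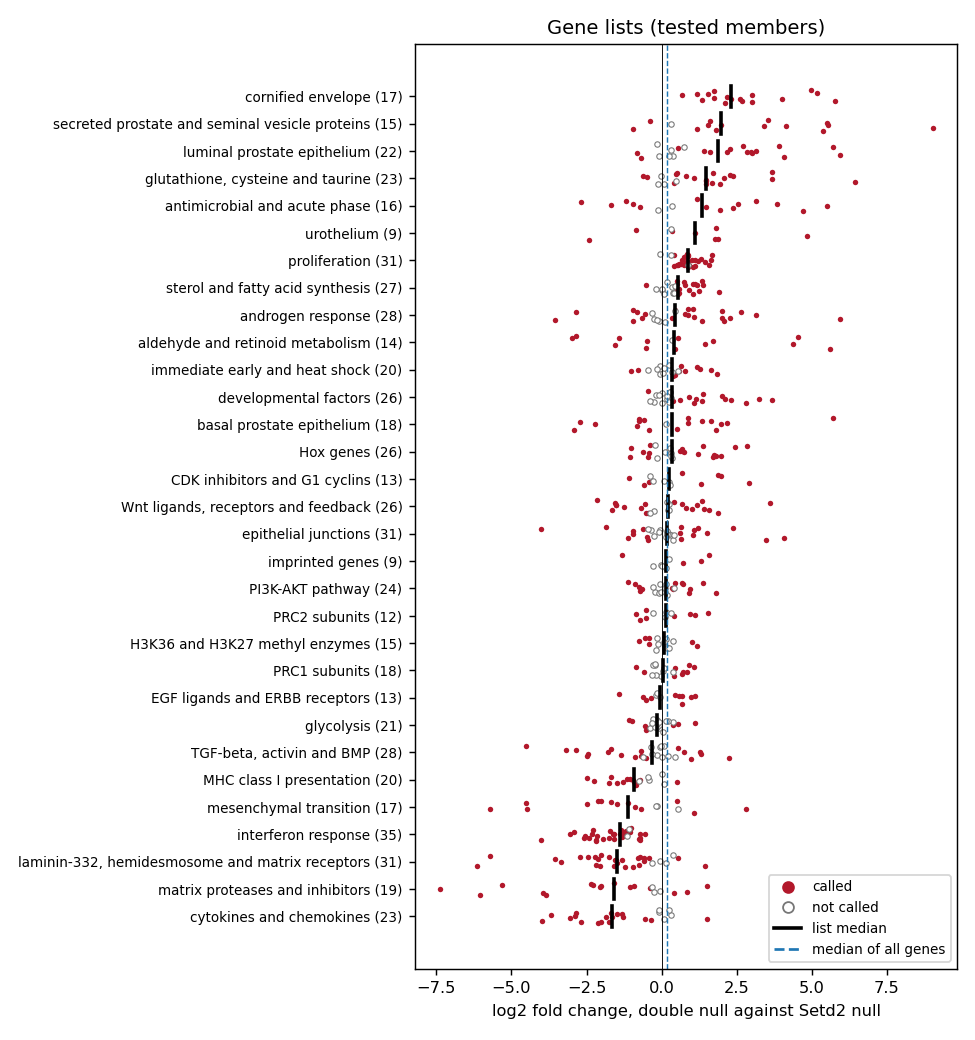
Log2 fold change of double null against Setd2 null (horizontal axis) for the tested members of each gene list with at least 9 of them, ordered by list median; the number of members stands beside each name. Filled points are called genes, open points are not, black bars are list medians, and the dashed line is the median of all tested genes, 0.18. Cornified envelope genes lie at the top with a median of 2.32 and cytokines and chemokines at the bottom with a median of -1.66.

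The 4 largest falls were those of Mmp9, Tnc, Mmp13 and Fn1, which encode matrix proteins or enzymes that cut them. Mmp9 (chr2:164940744-164955850, plus strand), a gelatinase, stood at 140.2 and 284 RPKM in Setd2 null and at 0.184 and 0.214 in double null (-7.39 ± 0.293, limma adjusted p = 3.85e-07). Tnc, the matrix glycoprotein tenascin-C, fell from 249 and 327 to 2.99 and 3.03 RPKM (-6.16 ± 0.142). Mmp13, a collagenase, fell from 68.9 and 68.3 to 0.0527 and 0.0663 (-6.04 ± 0.113), and Fn1, fibronectin, from 298 and 549.6 to 6.4 and 6.92 (-5.73 ± 0.24). The double null libraries were low and close to each other for all 4, while the Setd2 null libraries of Mmp9 and Fn1 lay about 2-fold apart. The others of the 15 largest falls were those of Mmp10, Vcam1, Ifi205, Col8a1, Inhba, Ctla2a, Vim, Bst1, Il18r1, Ctgf and Antxr2.

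Of 31 tested genes of laminins, hemidesmosomes and matrix receptors, 25 were lower and 2 higher, with a median of -1.48. The background is 19.4% lower. Lama3, another chain of laminin-332, fell from 229.9 and 206 to 17.9 and 17.8 RPKM. Itga2, a collagen receptor subunit, fell from 273 and 279 to 28.4 and 24.1, and Itgb1, its partner and that of many other integrins, from 596 and 561 to 144 and 114. Cd44, the hyaluronan receptor, fell from 389.7 and 269.9 to 116 and 97.2. Lamb2 and Itgb8 were higher, Itgb8 at 0.959 and 1.33 against 5.01 and 4.52 RPKM, and Col17a1, Itgb5, Plec and Col4a1 were not called. The matrix proteases and their inhibitors gave 13 lower and 3 higher of 19, with a median of -1.60. Plau, the urokinase that activates plasminogen, fell from 296 and 238 to 16.2 and 16.5 RPKM, and Timp1, a metalloproteinase inhibitor, from 135 and 116 to 7.82 and 7.68. Adam8, a membrane protease, fell from 254 and 336 to 54.8 and 63.8. The higher ones were Mmp2, Adamts1 and Serpine2, the last at 28.3 and 25.4 against 83.6 and 72.3 RPKM. After quantile normalization 1 of these 3 was higher.

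Genes linked to mesenchymal transition, in which epithelial cells take on migratory traits, were mostly lower, with exceptions among the transcription factors. Of 17 tested 11 were lower and 3 higher, with a median of -1.13. After quantile normalization 11 were lower and 2 higher. Vim, the intermediate filament vimentin, fell from 58.3 and 55.6 to 1.66 and 1.58 RPKM (-4.47 ± 0.116, limma adjusted p = 9.91e-09), and the receptor kinase Axl from 125 and 145 to 22.6 and 23.8. Hmga2, a chromatin factor, fell from 49.1 and 54.7 to 16.2 and 14.5. Twist1, a bHLH factor of mesenchyme, went the other way, from 0 and 0.0172 to 5.24 and 7.09 RPKM (2.82 ± 0.221, adjusted p = 6.56e-06), and Snai2 from 6.77 and 6.73 to 11.1 and 9.17. Among the factors too low to be tested, Snai1 (0.168 and 0.398 against 0.0497 and 0.0364 RPKM) and Zeb1 were lower in both double null libraries. Zeb2 and Prrx1 were higher in both. Junction genes were divided, with 10 higher, 8 lower and 13 not called of 31. Of all tested genes 35.6% were higher and 19.4% lower, so the junction shares are not far from these. Epcam, an epithelial adhesion molecule, fell from 1174 and 1225 to 326 and 329.9 RPKM, and the claudin Cldn6 from 22.6 and 20.8 to 0.357 and 0.44, while the claudins Cldn8 and Cldn10 rose from 1.25 and 0.82 to 22.2 and 20.7 and from 0.168 and 0.446 to 22.7 and 19.3. E-cadherin, Cdh1, was 389 and 477 against 325 and 352 (log2 fold change -0.35, adjusted p = 0.07). The list median of 0.19 was -0.00 after median-ratio scaling.

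Interferon-stimulated genes fell almost as a whole. These genes are induced through STAT2 and IRF9 and act against viruses. Of 35 tested, 33 were lower and 0 higher (0 also after quantile normalization, after median-ratio scaling and with voom), with a median of -1.38. Oasl2 stood at 75.1 and 113 RPKM in Setd2 null and 10.6 and 9.93 in double null (-3.05 ± 0.177, limma adjusted p = 8.58e-07). Ifi44 stood at 49.2 and 93.4 against 3.26 and 3.3, and Usp18, which removes ISG15 and dampens interferon signalling, at 55.2 and 72.2 against 11.9 and 11.8. Irf7, a factor that amplifies the response, stood at 52.4 and 123 against 15.3 and 18.3. The second Setd2 null library was the higher for each of these genes, and the summed level of the whole list was 1010 and 1491 RPKM in Setd2 null and 385.1 and 370.4 in double null. Isg15 was not called (10.98 and 20.5 against 16.4 and 2.32, adjusted p = 0.478). For Isg15 the first double null library lay within the Setd2 null range and the second below it.

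The sequence that these genes are known to share is the interferon-stimulated response element, bound by interferon regulatory factors. It was searched on both strands as GAAA, then 2 bases of any kind, then GAAA. The promoters of 3 genes that fell carry it and are printed here with the match in capitals: Oas3 (chr5:120777680-120777809, minus strand) and Ifit1 (chr19:34640739-34640868, plus strand) from 150 to 21 bases before the start, and Ifi205 (chr1:174031806-174031935, minus strand) from 180 to 51 before it, all from RefSeq GRCm38.p6.
Oas3: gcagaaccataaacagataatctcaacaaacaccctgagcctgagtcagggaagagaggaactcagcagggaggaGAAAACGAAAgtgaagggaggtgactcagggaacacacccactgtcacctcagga
Ifit1: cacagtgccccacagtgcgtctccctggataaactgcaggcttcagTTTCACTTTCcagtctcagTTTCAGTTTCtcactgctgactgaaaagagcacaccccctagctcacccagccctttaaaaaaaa
Ifi205: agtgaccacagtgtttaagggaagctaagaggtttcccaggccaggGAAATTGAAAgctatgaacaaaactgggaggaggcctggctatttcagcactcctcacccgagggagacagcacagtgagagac
Ifit1 has 2 matches, both on the other strand. Oas3 stood at 19.01 and 47.8 RPKM against 3.26 and 3.01, Ifit1 at 22.6 and 32.5 against 5.2 and 4.29, and Ifi205, of the DNA-sensing PYHIN family, at 37.5 and 37.6 against 0.374 and 0.623. All 3 were lower in double null with no overlap. The letters were found in the 300-base window of 44 of the 591 genes lower at least 2-fold (7.45%), in 2.72% of the 1028 genes higher at least 2-fold, in 2.96% of all tested genes and in 3.49% of all 27025 promoters of the table. In the interferon list 12 of 26 promoters held them. The letters of an AP-1 site, TGANTCA, were in 10.2% of the lower, 6.52% of the higher, 5.09% of all tested and 7.93% of all promoters. A match is a description of the sequence and no evidence of binding.

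Antigen presentation by MHC class I followed the interferon genes. Of 20 tested genes 14 were lower and 1 higher, with a median of -0.91. B2m, the shared light chain, stood at 1135 and 1517 RPKM in Setd2 null and 415 and 368 in double null (-1.75 ± 0.172, limma adjusted p = 2.87e-05). H2-T22 stood at 58.5 and 64.2 against 21.6 and 21.1, and the immunoproteasome subunit Psmb8 at 27.6 and 49.7 against 6.11 and 7.97. All were lower with no overlap. The heavy chain genes are close copies, so the split of reads between H2-K1, H2-Q4, H2-Q7, H2-T22 and H2-T23 is uncertain. Calr, a chaperone of the endoplasmic reticulum, was the member that rose, and H2-D1, Nlrc5, Erap1, Canx and Pdia3 were not called.

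Cytokines and chemokines were lower in 17 of 23 cases and higher in 1, with a median of -1.66. Csf2, the growth factor GM-CSF, fell from 19.99 and 18.5 to 0.345 and 0.225 RPKM (-3.98 ± 0.16, limma adjusted p = 8.98e-08). The neutrophil chemokines fell as well, Cxcl1 from 268 and 181 to 30.6 and 27.5 RPKM, Cxcl3 from 77.4 and 64.8 to 4.69 and 4.58 and Cxcl5 from 175 and 169.7 to 25.2 and 21.4. Tslp, an epithelial alarm cytokine, fell from 70.4 and 63.9 to 8.58 and 5.91, and Il1a from 56.0 and 51.8 to 7.53 and 7.43. Ccl28, a mucosal chemokine, rose from 0.15 and 0.0372 to 2.44 and 1.8. Il18, Il33, Cxcl10, Ccl2 and Ccl20 were not called. Antimicrobial and acute phase genes were divided, 9 higher and 5 lower of 16. Defb1, a beta-defensin, rose from 3.87 and 2.2 to 122 and 86.2 RPKM and Saa3, serum amyloid A, from 0.228 and 0 to 13.6 and 16.5, whereas complement C3 fell from 64.6 and 126 to 26.3 and 28.5 and Nos2, the inducible nitric oxide synthase, from 21.1 and 48.1 to 3.92 and 4.31. Wfdc2, Slpi and Hp were lower too.

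Proliferation genes were higher. Of 31 tested 28 were higher and 0 lower, with a median of 0.87; after quantile normalization 24 were higher, after median-ratio scaling 21, and without the first double null library 22, with 0 lower each time. Mcm5, a subunit of the replicative helicase, stood at 12.7 and 9.27 RPKM in Setd2 null and 33.6 and 40.8 in double null (1.68 ± 0.162, limma adjusted p = 2.52e-05). Mcm2 stood at 13.6 and 9.93 against 36.5 and 41.3, and Cdc20, an activator of the anaphase-promoting complex, at 24.9 and 19.6 against 63.1 and 72.8. Mki67 stood at 28.0 and 19.5 against 49.3 and 38.8. The second Setd2 null library was the lower one for each of these. Top2a, Ccne2 and Bub1 were not called. Cell cycle inhibitors and their partners moved in both directions. Of 13 tested, 5 were higher, 3 lower and 5 not called, shares close to the 35.6% higher and 19.4% lower of all tested genes. Cdkn2a, which encodes the p16 and p19 proteins, stood at 6.22 and 5.55 RPKM against 39.7 and 65.9 (2.92 ± 0.28, adjusted p = 4.60e-05), and Cdkn2c at 2.74 and 2.26 against 11.8 and 13.9. Cdkn1c, Ccnd2 and Ccnd3 also rose, and Cdkn1a, Cdkn2b and Cdk6 fell.

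Metabolic genes differed by pathway. Of 23 tested genes of glutathione, cysteine and taurine metabolism, which defend against oxidants, 17 were higher and 2 lower, with a median of 1.46. Gstm1, a glutathione transferase, rose from 5.03 and 5.07 to 80.01 and 72.1 RPKM (3.67 ± 0.118, limma adjusted p = 2.77e-08), Gpx3, a secreted peroxidase, from 1.54 and 1.46 to 32.0 and 30.3, and Gclc, the rate-limiting enzyme of glutathione synthesis, from 5.38 and 5.75 to 20.6 and 19.97. Gsr and Gstp1 fell, and Gpx1, Gpx4, Cbs and Nqo1 were not called. Without the first double null library 15 were higher and 0 lower. Enzymes of sterol and fatty acid synthesis gave 17 higher and 1 lower of 27, with a median of 0.53. Fasn, the fatty acid synthase, stood at 38.0 and 47.3 against 96.0 and 109 RPKM and Dhcr7, the last enzyme of cholesterol synthesis, at 7.87 and 7.62 against 20.5 and 22.9, and Scd1 was the lower member.

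Glycolysis genes were mostly not called: 3 were higher, 4 lower and 14 not called of 21, with a median of -0.15, and the lower count was 10 after quantile normalization and 7 after median-ratio scaling. Of all tested genes 35.6% were higher and 19.4% lower, so the share of lower genes as deposited was near that of all genes. Pfkp, a phosphofructokinase, fell from 29.6 and 31.0 to 14.1 and 15.5 RPKM and Slc16a3, a lactate exporter, from 71.8 and 78.6 to 30.2 and 41.0, while Slc16a1, another monocarboxylate transporter, rose from 6.5 and 5.24 to 14.6 and 12.8. Among genes of aldehyde and retinoid metabolism 7 were higher and 6 lower of 14. Aldh1a1 rose from 10.05 and 14.5 to 328 and 279 RPKM, Aldh1a7 from 0.838 and 0.925 to 95.2 and 86.4 and Aldh3a1 from 2.35 and 1.18 to 50.8 and 60.1. Aldh1a1 and Aldh1a7 are close copies. Cyp26b1, which breaks down retinoic acid, fell from 13 and 18.5 to 1.09 and 1.12.

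Hox genes, classical targets of Polycomb, moved in both directions. Of 39 Hox genes 26 were tested, of which 12 were higher, 6 lower and 8 not called, with a median of 0.33, against 35.6% higher and 19.4% lower of all tested genes. Hoxb8 stood at 0.986 and 0.893 RPKM in Setd2 null and 9.29 and 9.86 in double null (2.45 ± 0.121, limma adjusted p = 3.48e-07), and Hoxd4 at 1.25 and 1.11 against 6.16 and 7.31. The higher genes lay in the B and D clusters (Hoxb2, Hoxb3, Hoxb5 to Hoxb9, Hoxb13, Hoxd3, Hoxd4, Hoxd8 and Hoxd9), and the lower ones were Hoxa2, Hoxa3, Hoxa9, Hoxd10, Hoxd11 and Hoxd12. The genes of the C cluster were too low to be tested: all 9 listed were at 0 in both Setd2 null libraries and at most at 0.631 RPKM, for Hoxc13, in double null. Hoxd12 fell from 2.25 and 2.57 to 0.683 and 0.699. Without the first double null library 14 were higher and 3 lower.

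Of 55 other developmental factors 26 were tested, and 13 were higher and 1 lower, with a median of 0.34. Among all tested genes 35.6% were higher and 19.4% lower. Factors near 0 with Ezh2 intact could be tested only through the libraries with Ezh2 deleted, so the filter favours rises from near 0. Tbx2 rose from 1.79 and 2.33 to 33.5 and 42.8 RPKM (3.67 ± 0.202, limma adjusted p = 6.36e-07) and Irx1 from 0 and 0.0951 to 7.57 and 10.2. Pax2 and Pax8, factors of the Wolffian duct from which the epididymis and seminal vesicle form, went from 0.0263 and 0 to 3.91 and 4.24 and from 0.14 and 0.0108 to 3.7 and 3.63. Hand2 was at 0 in both Setd2 null libraries and at 5.3 and 6.92 in double null. Double null was higher for all 5 with no overlap. The lower factor was Sox4 (58.2 and 73.1 against 42.7 and 51.2, adjusted p = 0.0484), and Sox9, Foxa1, Gata3 and Tbx3, which are active in prostate epithelium, were among the 12 not called.

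Polycomb's own subunits moved in both directions. Of 12 PRC2 genes 4 were higher, 4 lower and 4 not called, against 55.0% of all tested genes called, with a median of 0.13, which was -0.05 after median-ratio scaling. Ezh1, the other methyltransferase of the complex, fell from 21.6 and 21.2 to 12.95 and 12.3 RPKM (-0.72 ± 0.122, limma adjusted p = 8.80e-04), and Mtf2, an accessory subunit, fell by 0.84 on the log2 scale. Jarid2 rose from 2.67 and 2.66 to 6.02 and 6.2 RPKM, and Phf19, another accessory subunit, from 0.653 and 0.684 to 2.97 and 2.22. The core partners Eed and Suz12 were not called. Of 18 PRC1 genes 7 were higher, a share near the 35.6% of all tested genes, and 2 lower, against 19.4%. The PRC1 median of 0.05 was -0.14 after quantile normalization. Bmi1 rose from 3.32 and 2.47 to 7.88 and 6.63 RPKM and Yaf2 fell from 16.4 and 16.4 to 8.96 and 8.25. Among 15 other enzymes of H3K36 and H3K27 methylation 2 were higher (Smyd2 and Kdm2b) and 4 lower (Kdm4c, Setd3, Uty and Whsc1l1), with a median of 0.07 that was -0.09 after quantile normalization. The H3K27 demethylases Kdm6a and Kdm6b were not called.

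Signalling genes moved in both directions within each pathway. Of 26 Wnt genes 10 were higher, a share near the 35.6% of all tested genes, and 10 lower, with a median of 0.20 that was -0.02 after quantile normalization. The feedback genes Axin2 (4.48 and 5.11 against 14.01 and 14.8 RPKM), Sp5 (0.491 and 0.12 against 12.9 and 16.9), Rnf43 and Znrf3 were higher. Among the ligands Wnt4 rose from 14.9 and 14.1 to 51.2 and 61.0 RPKM, while Wnt5a fell from 8.82 and 12.9 to 1.62 and 1.6, and Wnt7a, Wnt7b, Wnt9a and Wnt11 fell too. Of 28 TGF-beta, activin and BMP genes 12 were lower and 6 higher, with a median of -0.34. Inhba, the activin subunit, fell from 56.5 and 43.1 to 1.17 and 1.25 RPKM (-4.51 ± 0.16, limma adjusted p = 5.00e-08), and the feedback genes Skil and Smad7 from 50.8 and 50.9 to 9.31 and 7.77 and from 21.4 and 28.4 to 5.42 and 7.62. Bmpr1b, a BMP receptor, went from 0.0513 and 0.0219 to 4.54 and 3.44.

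Of 13 EGF family genes 6 were higher and 4 lower, against 35.6% and 19.4% of all tested genes, with a median of -0.06. The ligand Hbegf fell from 62.0 and 76.3 to 22.8 and 27.4 RPKM, while the receptor Erbb2 rose from 17.8 and 23.8 to 37.8 and 46.2 and the receptor inhibitor Lrig1 from 9.2 and 11.7 to 22.2 and 24.9. Of 24 PI3-kinase pathway genes 9 were higher, 5 lower and 10 not called, shares near the 35.6% and 19.4% of all tested genes, with a median of 0.14 that was -0.00 after quantile normalization. The regulatory subunits Pik3r1 and Pik3r3 rose, Pik3r3 from 3.05 and 3.03 to 14.3 and 12.3, and the catalytic subunits Pik3ca and Pik3cb, with Rictor and Foxo1, fell. Of 9 imprinted genes 3 were higher, Cdkn1c, Grb10 and Phlda2, a share near the 35.6% of all tested genes. Nnat was lower, and the list median of 0.14 was -0.13 after quantile normalization. Of 20 immediate early and heat shock genes 9 were higher and 2 lower, Jund rising from 29.0 and 32.9 to 114 and 112 RPKM and Jun and Ier3 falling.

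Some markers of other cell types moved with the deletion. Of 12 stromal genes 5 were tested, and 4 were higher and 1 lower. Dcn, a fibroblast proteoglycan, stood at 0.907 and 1.24 RPKM in Setd2 null and 25.5 and 20.3 in double null, and Col3a1 at 0.098 and 0.0453 against 2.88 and 3.08, while Postn fell from 6.0 and 10.3 to 0.0178 and 0.0405. The summed level of the list was 8.54 and 14.16 RPKM against 35.47 and 29.38, and Lum and Des were at 0 in both Setd2 null libraries and at most 0.123 in double null. Of the other untested members, Acta2 was lower in double null, at 0.556 and 0.801 against 0.0852 and 0.0556. Pdgfra and Pdgfrb were higher. Tagln (0.382 and 0.618 against 1.48 and 0) and Myh11 did not separate the groups. Of 10 immune genes 2 were tested. Lyz2, a lysozyme of macrophages, was at 0 in both Setd2 null libraries and at 2.67 and 3.02 in double null, while Cd68 fell from 33.0 and 39.5 to 10.6 and 11.6. The macrophage genes Adgre1, C1qa and C1qb were at 0 in both Setd2 null libraries. In double null they stood at 0.331 and 0.258, 0.372 and 0.419, and 0.606 and 0.371 RPKM. Ptprc, carried by all white blood cells, stood at 0 and 0 against 0.0206 and 0.0067. Itgam was also higher, at 0.00647 and 0.00598 against 0.125 and 0.0841. Csf1r, of the same list, went the other way, at 0.0897 and 0.083 against 0.0413 and 0.0404. Cd79a stood at 0.137 and 0.0211 against 0.0455 and 0, and Cd3e at 0 in the 4 libraries. Of 7 endothelial genes only Esam was tested and rose, and Emcn was at 0 in all 8 libraries. Of 10 neuroendocrine genes Ncam1 and Uchl1 were tested, and Chga and Syp stayed under 0.2 RPKM in the 4 libraries. Of 9 urothelial genes 6 were higher and 2 lower, Krt13 rising from 18.99 and 10.3 to 392 and 471 RPKM and Upk3a falling from 14.8 and 8.01 to 1.4 and 1.09. The part of such cells in the results above was not tested.

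Genes that changed at least 2-fold in the same direction stood side by side at several places of the genome. Counting only tested genes, 1 of the longest runs had 7 members. It lies at chr15:101624028-101940324 and holds the type II keratins Krt6b, Krt6a, Krt5, Krt1, Krt4 and Krt79 with the predicted gene Gm5414, all higher. Krt6a stood at 266 and 167 RPKM in Setd2 null and 895 and 1012 in double null. Runs of 5 or 6 higher genes held the type I keratins Krt10, Krt20, Krt23, Krt13 and Krt15, beta-defensins on chromosome 8, Wfdc protease inhibitors on chromosome 2, the envelope genes from Ivl to Tchh on chromosome 3, and Pate genes on chromosome 9. Lower runs held Irgm1, Psme2b, Tgtp1 and Ifi47 on chromosome 11 and the PYHIN genes Ifi204, Mnda, Ifi202b and Ifi205 on chromosome 1. Members of such families resemble each other in sequence, and neighbouring genes can overlap, so their reads are not all independent. Not all runs were of 1 family. A higher run on chromosome 15 held Ift27, Tst, Mpst, Kctd17 and C1qtnf6, and a lower run on chromosome 11 held Tmem95, Kctd11 and Acap1. Of all tested genes 18.2% met the 2-fold rule, and whether the runs exceed what this share gives was not tested.

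With Setd2 intact the same deletion gave nearly the same picture. The fold changes of Ezh2 null against control use none of the 4 libraries above. The filter and the estimate of spread are shared by all 8 libraries, so the calls of the 2 comparisons are not independent. This comparison called 6416 genes (56.6%), with 36.1% of all tested genes higher and 20.5% lower. Fitted on its own 2 groups only, it called 6814. At least 2-fold changes numbered 2213 (19.5%). Of the genes called in each, 5337 were called in the same direction in both, which is 85.5% of the calls with Setd2 deleted and 83.2% of those with Setd2 intact, and 30 were called in opposite directions. Of the 2069 genes changed at least 2-fold with Setd2 deleted, 2043 (98.7%) had the same sign with Setd2 intact, against 90% of all tested genes. The median log2 fold change over all tested genes was 0.18 in both comparisons, and such a shared shift adds to equal signs. Across the 11338 genes the log2 fold changes had a Pearson correlation of 0.91 and a Spearman correlation of 0.92. Genes are not independent replicates. The deviations of the libraries numbered 1 and 2 from their group means also correlated at 0.933 between Ezh2 null and double null. The value was 0.358 between control and Setd2 null, and 0.105 to 0.155 between groups of different Ezh2 status. Reads on listed genes ranged from 29685872 to 34880558 in the libraries with Ezh2 intact and from 46915130 to 54200685 with Ezh2 deleted. A difference in preparation or sequencing by Ezh2 status would enter both comparisons and cannot be told apart from the deletion.

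The interaction tests the difference itself, that is, the effect of deleting Ezh2 with Setd2 deleted minus the effect with Setd2 intact. It called 294 genes (2.59%), 192 with a positive (1.69%) and 102 with a negative difference (0.900%), and the count at an unadjusted p under 0.05 was 1166. The number depends on single libraries: it was 157 without the first and 142 without the second control library, 189 without the second double null library, and 64 without the libraries numbered 1 of both Ezh2 null and double null. With the voom method on recovered reads it was 151. Of the 2069 genes changed at least 2-fold, 188 (9.09%) had a called interaction. The effect was larger in size with Setd2 deleted for 138 of the 294 genes and with Setd2 intact for 156, and for 65 the signs were opposite.

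**Figure D4:**
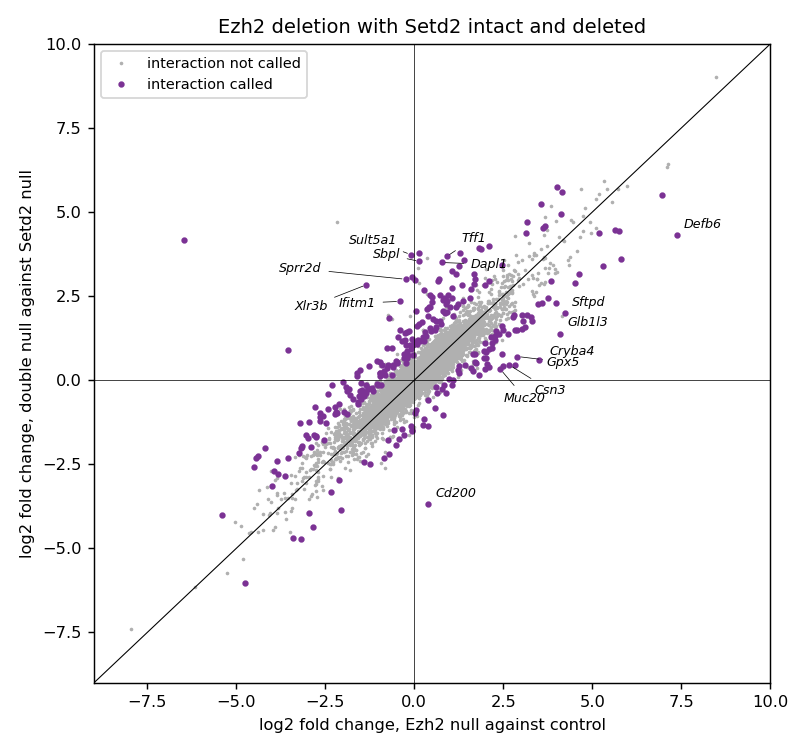
Log2 fold change on Ezh2 deletion with Setd2 deleted (vertical axis) against that with Setd2 intact (horizontal axis), 1 point per tested gene. Purple points are the 294 genes called in the interaction, grey points the rest, and the diagonal marks equal effects; the 15 labelled genes are among those with the largest differences by the naming rule.

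Xlr3b, of a multicopy X-linked family, stood high in control and double null and low in both single deletions: the control libraries had 5.77 and 2.92 RPKM, those of Setd2 null 0 and 0, those of Ezh2 null 1.03 and 1.03, and those of double null 6.62 and 5.7 (interaction 4.18).

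Other genes also had a larger rise where Setd2 was deleted. Sult5a1, a sulfotransferase, stood at 20.7 and 19.2 RPKM in double null and at no more than 0.643 in the other 6 libraries (interaction 3.83 ± 0.209, limma adjusted p = 4.16e-05). Sbpl, a relative of spermine-binding protein, was at 10.2 and 10.97 in double null and at most 0.164 elsewhere. Tff1, a trefoil peptide of mucous epithelia, stood at 10.9 and 13.7 in double null and 0.737 and 1.03 in Ezh2 null. Ifitm1 went from 2.89 and 3.55 to 20.1 and 20.6 with Setd2 deleted and from 8.06 and 6.46 to 5.06 and 5.4 with Setd2 intact, opposite to the fall of the interferon list. Dapl1, an epithelial differentiation gene, rose from 1.0 and 0.734 to 20.2 and 20.04 and, with Setd2 intact, from 4.38 and 4.3 to 7.35 and 8.99.

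Cd200, a surface protein that restrains myeloid cells (chr16:45382111-45409061, minus strand), had the most negative interaction of the genes named. It stood at 43.6 and 54.7 RPKM in Setd2 null and at 3.23 and 2.57 in double null, while control stood at 1.01 and 3.49 and Ezh2 null at 3.02 and 2.89. So the Setd2 null libraries were the high ones and the double null libraries lay within the range of control (interaction -4.08 ± 0.471, limma adjusted p = 0.00465). Without the second double null library or either Ezh2 null library the adjusted p lay between 0.0611 and 0.0743. Several secreted proteins rose less with Setd2 deleted. Defb6, a beta-defensin, reached 24.7 and 15.7 RPKM in double null and 219.6 and 150.5 in Ezh2 null, against at most 0.102 with Ezh2 intact. Sftpd, the collectin surfactant protein D, reached 7.65 and 6.76 against 34.8 and 33.1. Muc20, a membrane mucin, stood at 1.5 and 2.19 in Setd2 null and 2.81 and 2.27 in double null, not called (adjusted p = 0.121), but rose from 1.55 and 1.99 to 14.8 and 12.9 with Setd2 intact. Ltf, among the highest rises above, reached 1053 and 1042 RPKM in Ezh2 null (interaction -1.46, adjusted p = 0.00844).

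**Figure D5:**
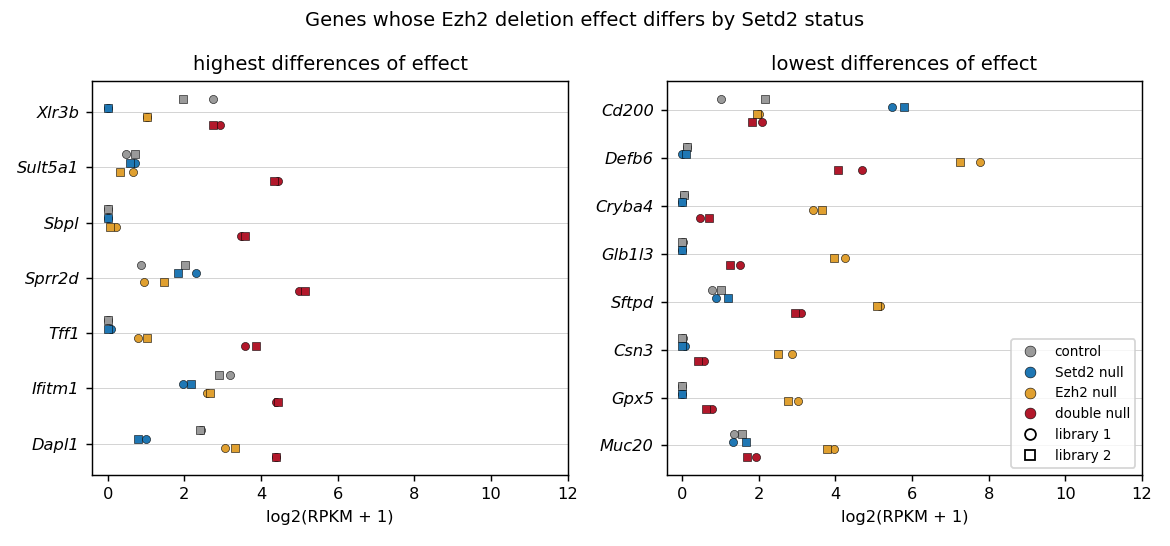
Levels of 15 genes with a large called interaction, as log2(RPKM + 1) on the horizontal axis, with 7 positive differences on the left and 8 negative on the right. Colours give the 4 groups and symbols the library number; Sult5a1 is high in double null, and Cd200 is high in Setd2 null.

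By list, the cornified envelope held the most genes whose rise was larger with Setd2 deleted: 7 of 17 had a positive called interaction, against 1.69% of all tested genes. With Setd2 intact 13 of the 17 were higher and 0 lower, with a median of 1.35 against 2.32. Krt10 reached 84.1 and 112 RPKM in double null and 25.3 and 36.7 in Ezh2 null (interaction 1.73 ± 0.27, limma adjusted p = 0.00919), and Dmkn 32.7 and 42.1 against 10.8 and 12.2 (1.89 ± 0.223, adjusted p = 0.00204). The other members with a call were Sprr1b, Sprr2d, Krt1, Cnfn and Calml3. The glycolysis list was lower in 15 of 21 genes with Setd2 intact, with a median of -0.68, against 4 with Setd2 deleted. Its interaction was called for 3 genes, Pfkp (1.19, adjusted p = 0.00428), Slc16a3 (1.503, adjusted p = 0.0104) and Aldoc. B2m fell more with Setd2 deleted, and with Setd2 intact it stood at 829 and 909 RPKM in control and 682 and 609 in Ezh2 null (interaction -1.32 ± 0.243, adjusted p = 0.0211). The interferon, proliferation, Wnt, PRC1 and PRC2 lists held 0 genes with a called interaction by limma. Among all tested genes the share was 2.59%, so a count of 0 in lists of this size is near that share. Other lists also held 0, among them those of sterol and fatty acid synthesis and of the PI3-kinase pathway. At this number of libraries a difference that was not called may still exist.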

How the data were processed

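RNA was sequenced from 12 organoid libraries, of which the 8 of the 4 genotypes from 3-month-old mice were used. The K735R count table and the H3K27me3 ChIP were not analysed here. The authors deposited RPKM per gene, and the genome build is mm10 per the submitters' processing notes, which name Bowtie, RSEM, BWA and SICER without roles. How strand and shared reads were handled, and all versions: not given in the sources used here. Date-like symbols (27) were restored from Entrez identifiers. Of 13748 genes above 0 in all libraries, 13744 (99.97%) were whole multiples of 1 read within 0.01 reads, which gave read counts for voom. Genes averaging at least 1 RPKM were fitted as log2(RPKM + 1) in limma 3.58.1 (R 4.3.3), with 1 model of the 4 groups, trended robust variances, two-sided tests and Benjamini-Hochberg adjustment over 11338 genes, called at 0.05. Levels are RPKM per library.

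The gene lists, members and rules were chosen with earlier results of these data known. The rule named Setd2 and Ezh2, then the 15 highest and 15 lowest fold changes of called genes whose groups did not overlap and that reached 5 RPKM, the 8 highest and 8 lowest called interactions that reached 5 RPKM, the 5 highest genes at 0 in either group, the 10 largest differences of mean RPKM and 4 members of each list by smallest p. Other list members are examples chosen after their values were seen. Predicted genes were left out, and a few results under the rule are not reported here. Promoters, 250 bases before to 50 after the first listed start, came from RefSeq (GRCm38.p6). The alternatives were quantile and median-ratio scaling, other filters, a pseudocount of 0.1, voom, a replicate block, only the compared groups, a 2-fold minimum and leaving out libraries. Leaving out both libraries numbered 1 of Ezh2 null and double null, genes that overlap no other gene, and list counts without the first double null library were added after seeing the data.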

Additional observations from a re-analysis of the deposited data

Results flagged for a closer look

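For 15 genes the effect of deleting Ezh2 differed by Setd2 status in the interaction test, and these were among the largest such differences of genes that reached 5 RPKM. The positive differences on the log2 scale were 4.18 for Xlr3b, 3.83 for Sult5a1, 3.39 for Sbpl, 3.25 for Sprr2d, 2.77 for Tff1, 2.74 for Ifitm1 and 2.73 for Dapl1. The negative differences were -4.08 for Cd200, -3.06 for Defb6, -2.90 for Cryba4, -2.70 for Glb1l3, -2.23 for Sftpd, -2.22 for Csn3, -2.19 for Gpx5 and -2.10 for Muc20. The limma adjusted p ranged from 2.20e-05 for Sbpl to 0.033 for Sprr2d. Cryba4, Glb1l3, Csn3 and Gpx5 stayed under 2 RPKM in double null, at 0.385 and 0.641, 1.87 and 1.38, 0.481 and 0.342, and 0.723 and 0.542, and reached 4.66 to 18.0 RPKM in Ezh2 null. For 7 of the 15, Xlr3b, Sult5a1, Sbpl, Ifitm1, Dapl1, Sftpd and Muc20, the call held under each alternative that fitted them; Xlr3b, Sbpl and Muc20 average under 5 RPKM and were not in the fit with that minimum. Sprr2d lost it in 8 alternatives, Cd200 in 4, and Tff1, Defb6, Cryba4, Glb1l3, Csn3 and Gpx5 with voom on recovered reads.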

How the results depend on the processing

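The count of called genes between double null and Setd2 null, 6241, stayed within 1.5 times under every alternative except a 2-fold minimum (2069); leaving out 1 library each gave 4707 to 5679. For Ezh2 null against control the 2-fold minimum gave 2213 of 6416, and leaving out 1 library 4776 to 5864. The interaction count of 294 was 146 with a mean of at least 5 RPKM, 151 with voom, 142 to 278 without 1 library each, and 64 without the libraries numbered 1 of Ezh2 null and double null. A fit without 1 library leaves a lone sample in its group, which is assumed to vary like the others. With 2 replicate numbers, whether they pair the samples was not settled; the replicate block called 7232, 7453 and 469 genes in the order above, and deviations of same-numbered libraries correlated at 0.105 between Setd2 null and double null, the lowest of 6 pairs of groups, and at 0.933, the highest, between Ezh2 null and double null. Of 163 called genes that the rule names, 155 were called under each alternative that fitted them (the minimum of 5 RPKM kept 131 of 166 named genes), and Ezh2, Cryba4, Csn3, Gpx5, Rpl41, Kdm4c, Uchl1 and Phlda2 were not. Ncam1, not called (-0.14), was -0.50 without the first Setd2 null library, where it was called, and 0.23 without the second. The cause of these changes was not tested. With 2 pools a group, differences under the spread between pools were not detectable.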

Other observations

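LOC108168162 on chromosome 14, an uncharacterized gene outside the naming rule and singled out after its values were seen, had 263 and 364 RPKM in the control libraries. The Setd2 null libraries had 98.1 and 0.954, the Ezh2 null libraries 64.8 and 70.6, and the double null libraries 361 and 365. The Setd2 null libraries differed from each other far more than the other pairs, and neither the change with Setd2 deleted (log2 fold change 4.71, limma adjusted p = 0.112) nor the interaction (6.89, adjusted p = 0.540) was called.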
